A study of Mus musculus with 12 samples.

Results

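*Mtmr2*, its relatives and partners, and the enzymes that make and remove the lipids it acts on were followed in mouse sciatic nerve RNA. The set holds 10 genes of the 43432 in the count table, chosen by symbol and joined to the counts by Ensembl identifier: *Mtmr2*, *Sbf1*, *Sbf2*, *Mtm1*, *Mtmr1*, *Fig4*, *Vac14*, *Pikfyve*, *Pik3c3* and *Inpp4a*. All 10 passed the filter on low counts, which kept 17257 genes, and no member had fewer than 246 counts in any library.

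RNA was collected at postnatal day 30 (age 1 month in the labels) in 3 groups of 4 mice (3 males and 1 female in each), every mouse giving 1 library. These were WT mice (*Mtmr2* wt/wt, no treatment), *Mtmr2* KO mice (*Mtmr2* -/-, no treatment) and niacin-treated *Mtmr2* KO mice (*Mtmr2* -/-, niacin), all on a shared inbred background. Here untreated means without niacin, and the paper calls the KO mice set against the treated ones vehicle treated. The treated mice were given niacin intraperitoneally at 120 mg/kg from day 10 to day 21 and slow-release niacin by gavage from day 21 to day 30. Both KO groups carry the same genotype, and niacin-treated WT mice were not analysed here, so the comparison of treated KO with WT combines genotype and treatment. Libraries are named by the numbers of the labels: 4497 to 4500 for WT, 4501 to 4504 for *Mtmr2* KO, and 4505 to 4508 for niacin-treated KO.

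Phosphoinositides are membrane lipids whose inositol ring carries phosphates at positions that mark membrane compartments. PI3P, made on early endosomes, is converted to PI(3,5)P2 on late endosomes and lysosomes, and myotubularins remove the phosphate at position 3 from both lipids. *Mtmr2* is such a phosphatase, and its loss causes Charcot-Marie-Tooth disease type 4B1, a demyelinating neuropathy with folded myelin that arises in Schwann cells. *Sbf1* and *Sbf2* encode the pseudophosphatases also called Mtmr5 and Mtmr13, which bind *Mtmr2* and are mutated in related neuropathies.

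The catalytic site of a myotubularin is a short loop with a cysteine and an arginine, both of which the reaction needs. The stretch of coding sequence that holds it is shown for the 5 myotubularin members because it separates the 3 phosphatases from the 2 pseudophosphatases. Each run of 27 coding bases is given 5′ to 3′ on the coding strand, from the GENCODE M21 transcripts of GRCm38, and the capitals mark the codons at the cysteine and the arginine of *Mtmr2* and those aligned with them.
Mtmr2: cacTGCagtgatggatgggatCGCaca
Mtm1: cacTGCagtgacggatgggacAGGacc
Mtmr1: cacTGCagtgatgggtgggatCGAaca
Sbf1: agcCTGgaggacggctgggacATCacc
Sbf2: tgtTTAgaagaaggctgggacATCact
In *Mtmr2* the run lies at chr9:13799942-13799968 on the plus strand, in exon 11 of 15, and the capitals are codons 417 and 423. The aligned runs lie at chrX:71299634-71299660 for *Mtm1* (plus strand, exon 11 of 15), chrX:71401794-71401820 for *Mtmr1* (plus strand, exon 11 of 15), chr15:89294409-89294435 for *Sbf1* (minus strand, exon 32 of 41) and chr7:110330616-110330642 for *Sbf2* (minus strand, exon 32 of 41). *Mtm1* and *Mtmr1* have codons for cysteine and arginine in both places, whereas *Sbf1* and *Sbf2* have neither. Of the 14 family genes aligned, 8 had both codons and the other 6, *Sbf1*, *Sbf2*, *Mtmr9*, *Mtmr10*, *Mtmr11* and *Mtmr12*, had neither. Over the aligned coding sequence the share of codons with the same meaning as in *Mtmr2* was 69.5% for *Mtmr1*, 63.3% for *Mtm1*, 38.3% for *Sbf2* and 36.6% for *Sbf1*. The aligned part was 632 of 671 codons of *Mtmr1* and 597 of 603 of *Mtm1*. It was only 355 of 1872 codons of *Sbf2* and 355 of 1893 of *Sbf1*, so these shares describe unlike parts of the genes.

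Libraries held between 20763951 and 33191106 counts. Every niacin-treated library (20983641 to 22935378) held fewer counts than every WT library (26653828 to 28390961). Depth and group can therefore not be told apart in that comparison. Several libraries stood apart. The library labelled *Mtmr2* KO replicate 4503 had a WT level of the targeted gene, which goes against its label. Its summed markers of non-myelinating Schwann cells (720 CPM) and neurons (42.9 CPM) lay above every WT library, as in the other KO libraries. Its adipocyte markers (1671 CPM) lay below every WT library, as in 4501 and 4504. Its endothelial markers (527 CPM) lay above every WT library, whereas those of the other KO libraries (214 to 409 CPM) lay below. Whether it is mislabelled is not settled here. It was kept under its label, so each KO mean and each comparison with KO includes a library of doubtful genotype. The library labelled KO replicate 4502 had the highest summed levels of endoneurial fibroblast markers (14281 CPM, against 5607 to 8625 in the other KO libraries) and of neuron markers (159 CPM, against 39.3 to 54.9). It was also the highest of all libraries for markers of non-myelinating Schwann cells, vascular smooth muscle, macrophages and adipocytes (950, 1497, 778 and 4564 CPM) and the lowest for endothelial markers (214 CPM). Skeletal muscle markers summed to 3366 and 3271 CPM in the niacin-treated replicates 4506 and 4507 and to at most 94.1 CPM in the other libraries, and every gene of the marker lists had counts. Markers of myelinating Schwann cells, which mark the labelled tissue, summed to 94383 to 119596 CPM in WT, 94429 to 129177 in KO and 66382 to 107219 in niacin-treated KO. The 4286 genes of highest GC content (the share of G and C bases in the longest transcript) were lower than in WT by a median log2 difference of -0.19 to -0.35 in the niacin-treated libraries and of -0.43 in KO replicate 4502, and the 4286 of lowest GC content were higher by 0.13 to 0.32 and by 0.39, while the other KO libraries lay between -0.07 and 0.03 for both sets of genes. In whole nerve, fewer cells of a type cannot be told apart from less RNA per cell.

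In WT nerve the transcripts of *Mtmr2* and its partners were the most abundant of the set. Levels of different genes were compared as CPM per kilobase of merged exons. *Mtmr2* was at 28.3 ± 3.07 CPM per kb (SD, n = 4), followed by *Sbf2* at 22.9 ± 2.14 and *Sbf1* at 13.1 ± 1.39. Below these lay *Fig4*, a phosphatase of PI(3,5)P2, at 9.76 ± 0.228 CPM per kb and *Pik3c3*, the class III kinase that makes PI3P, at 8.85 ± 0.545. *Inpp4a*, which turns PI(3,4)P2 into PI3P, was at 6.99 ± 0.756 CPM per kb. *Mtmr1* and *Vac14*, the scaffold that holds *Pikfyve* and *Fig4* together, were at 4.31 ± 0.155 and 4.23 ± 0.374. *Pikfyve*, the kinase that makes PI(3,5)P2 from PI3P, was at 2.54 ± 0.0926 CPM per kb and *Mtm1*, mutated in X-linked myotubular myopathy, at 0.874 ± 0.0388. Of all neighbours in this order, only *Mtmr1* and *Vac14* had WT ranges that overlapped. With the length of the longest transcript in place of merged exons, the order was *Sbf2*, *Mtmr2*, *Sbf1*, *Inpp4a*, *Pik3c3* and *Fig4*, followed by the same 4 genes, so *Mtmr2* changed places with *Sbf2*, and *Fig4* with *Inpp4a*.

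**Figure D1:**
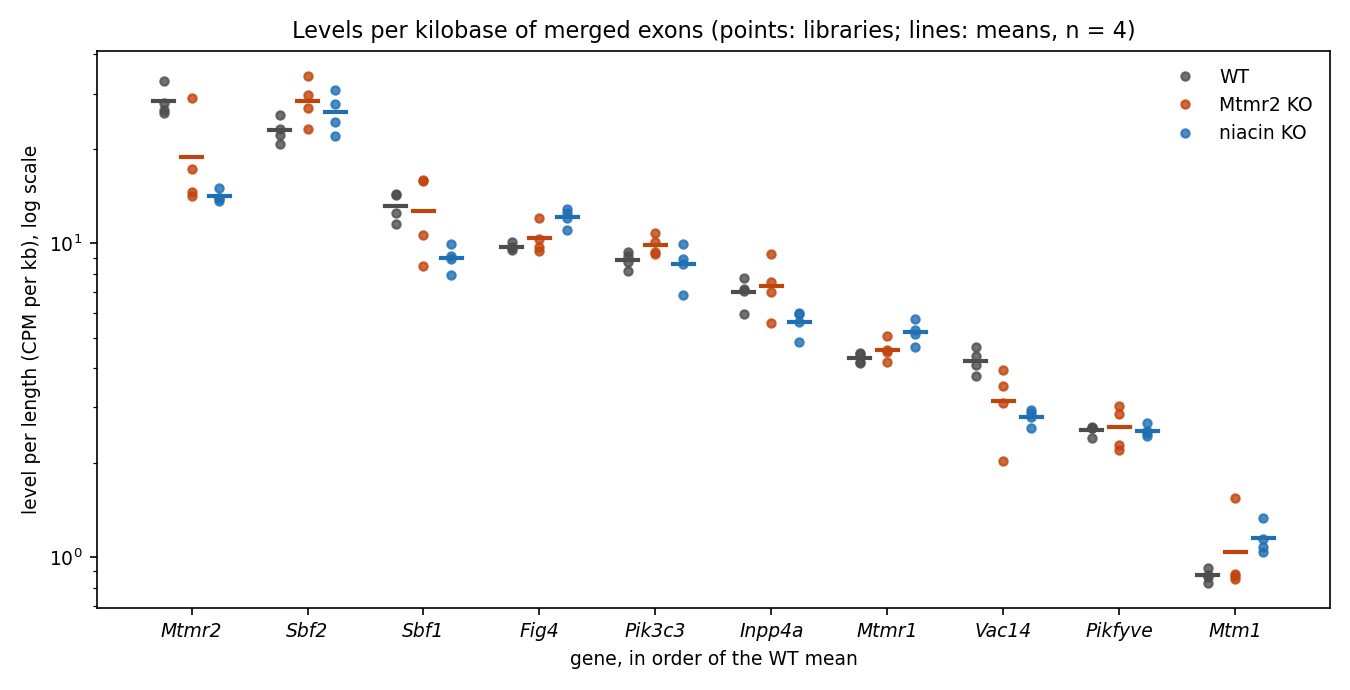
Level of each gene in CPM per kilobase of merged exons (log axis), with genes in the order of their WT mean, points for the 4 libraries of each group and lines for group means. Mtmr2 led the order in WT (mean 28.3) and lay below Sbf2 in both groups labelled Mtmr2 -/- (means 18.8 and 14.1 against 28.4 and 26.2).

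*Mtmr2* RNA was present in all 8 libraries labelled *Mtmr2* -/-, and in 7 of them it was lower than in any WT library. Counts cover the whole gene (chr9:13748410-13806481, plus strand), the labels and methods read here do not give the deleted part, and reads of a remaining transcript are counted. WT libraries 4497 to 4500 had 161, 130, 128 and 137 CPM. KO replicates 4501, 4502 and 4504 had 71.6, 84.7 and 69.5 CPM, and the library labelled KO replicate 4503 had 143 CPM, inside the WT range. The niacin-treated replicates 4505 to 4508 had 66.8, 68.5, 68.3 and 73.5 CPM. The niacin-treated libraries therefore lay below every WT library, with means of 69.3 ± 2.94 and 139 ± 15.1 CPM (SD, n = 4), whereas the KO libraries overlapped both.

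Against WT, *Mtmr2* differed by a log2 fold change of -0.59 in KO (SE 0.20, adjusted p = 0.166 by the quasi-likelihood test of edgeR, exact two-sided permutation p = 0.114) and of -1.01 in niacin-treated KO (SE 0.20, edgeR adjusted p = 0.0833, exact permutation p = 0.0286). The smallest p that 4 against 4 libraries allow in the exact test is 0.0286. The library labelled KO replicate 4503 was singled out by its *Mtmr2* level, so a test of *Mtmr2* without it is not independent evidence. With it left out, the difference between KO and WT was -0.89 (SE 0.12, edgeR adjusted p = 0.0326), in a fit that called 0.0344% of genes. The difference between niacin-treated and untreated KO then went from -0.41 to -0.12 (SE 0.12, edgeR adjusted p = 0.719).

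**Figure D2:**
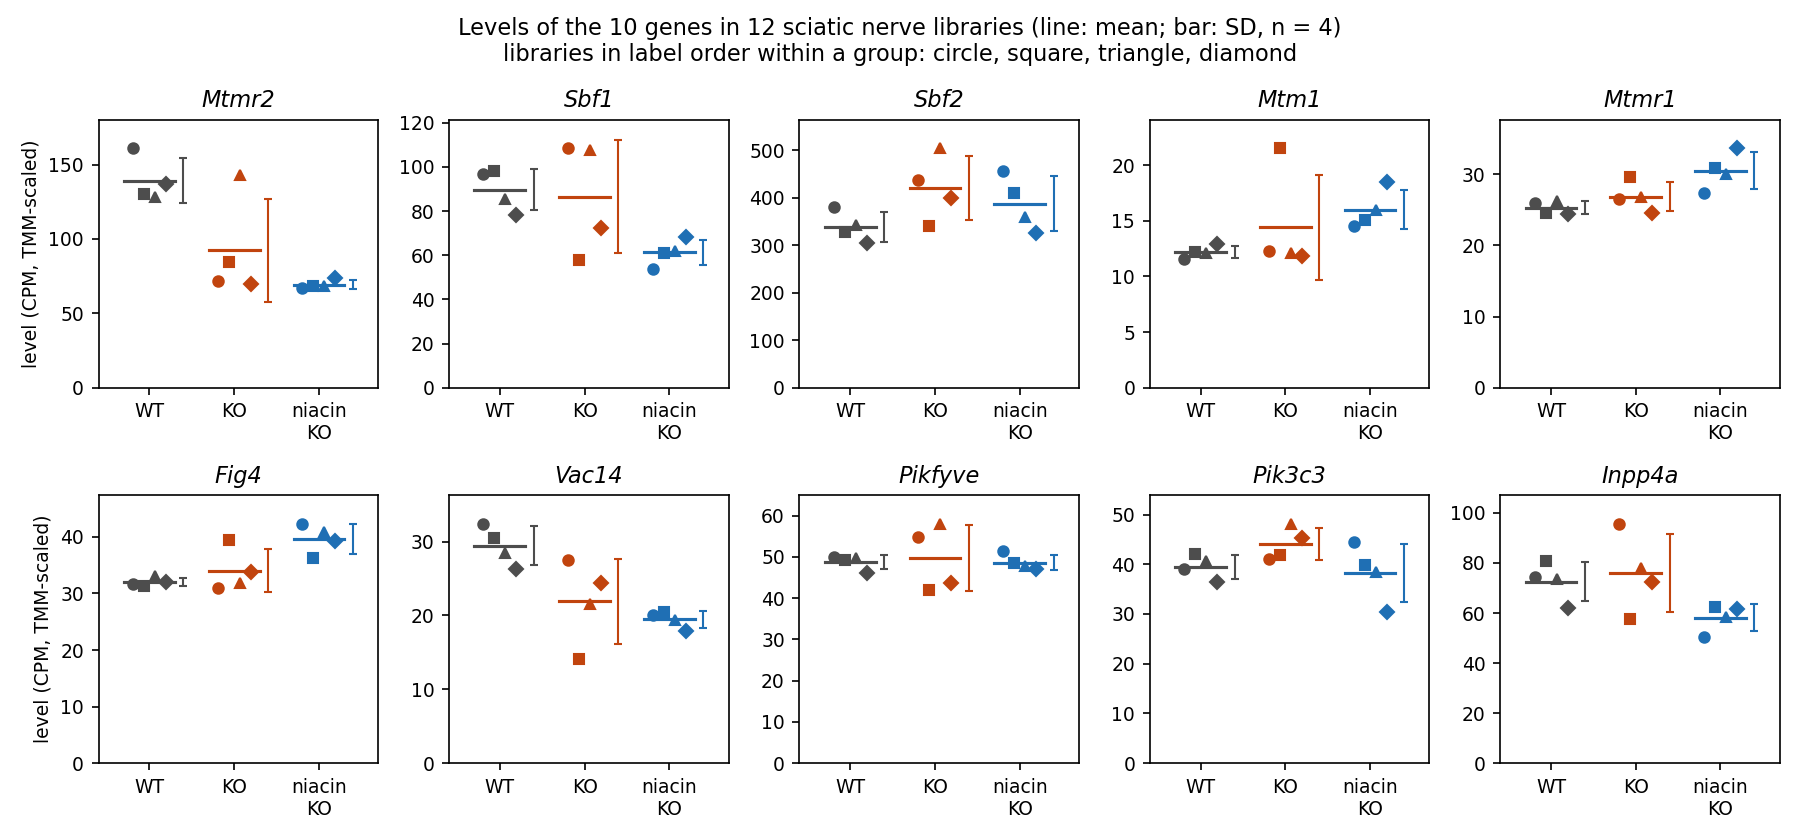
Level of each of the 10 genes (CPM with TMM scaling, axis from 0) in the 4 libraries of each group, with the group mean as a line and the SD as a bar; circle, square, triangle and diamond are the libraries of a group in label order. Mtmr2 lay at 66.8 to 73.5 CPM in the niacin-treated group, below all WT libraries, and the triangle of the KO group (143 CPM) lay among them.

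No member differed between KO and WT at an adjusted p under 0.05 in the edgeR fit of all 12 libraries, in which 46 of 17257 genes were called (0.267%). At an unadjusted p under 0.05, 2 of the 10 members were found, *Mtmr2* and *Vac14*, beside 17.2% of all genes tested. No member was called by DESeq2. On all 12 libraries it called 262 genes higher and 397 lower in KO, of 18978. On the 2 groups alone it called 135 higher and 297 lower of 17273. Limma-voom with quality weights called *Mtmr2* alone (-0.83, adjusted p = 0.0279; 0.626% of all genes). None of the 10 had KO and WT ranges that did not overlap, whereas 9.32% of all genes tested did. The median log2 fold change of the 10 was 0.08, beside 0.03 over all genes tested.

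*Vac14* had the second lowest ratio to WT. It was at 32.4, 30.5, 28.5 and 26.3 CPM in WT libraries 4497 to 4500 and at 27.6, 14.1, 21.5 and 24.4 CPM in KO libraries 4501 to 4504, a log2 fold change of -0.43 (SE 0.17, edgeR adjusted p = 0.218, exact permutation p = 0.0571). KO replicate 4502 was the lowest of all, and without it the value was -0.27. *Sbf2* was at 381, 327, 343 and 305 CPM in WT and at 437, 341, 504 and 399 CPM in KO. Its difference of 0.31 (SE 0.16, edgeR adjusted p = 0.328) did not pass, although 3 of the 4 KO libraries lay above every WT library, and it was 0.21 without the library labelled 4503, the highest of them. *Mtm1* was at 11.6 to 12.9 CPM in WT and at 11.8 to 12.3 CPM in 3 KO libraries, while replicate 4502 had 21.5 CPM; without that replicate its difference went from 0.24 to -0.01.

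The other 6 members had KO means at 96.5% to 112% of the WT mean. For *Sbf1* and *Pikfyve* such a mean hides the spread, as all 4 KO libraries lay outside the WT range, some above and some below. *Sbf1* was at 57.8 to 108 CPM in KO and 78.4 to 98.1 in WT, and *Pikfyve* at 42.0 to 58.0 and 46.2 to 50.0. Summed markers of non-myelinating Schwann cells (8 genes, 629 to 950 CPM in KO and 480 to 591 in WT) and of neurons (8 genes, 39.3 to 159 and 26.7 to 35.9) did not overlap between KO and WT. Of 9 adipocyte markers 2 were called lower in KO, with a median log2 fold change of -0.53. The 7 vascular smooth muscle markers had a median of -1.32 and none was called. The part of these markers in the members' values was not tested.

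Niacin-treated and untreated KO nerve were compared to ask whether treatment moved these genes within the mutant. No member was called in the edgeR fit of all 12 libraries, in which 246 genes were called (1.43%), and 2 members, *Sbf1* and *Inpp4a*, had an unadjusted p under 0.05, beside 20.1% of all genes. DESeq2 called no member either. On all 12 libraries it called 486 genes higher and 553 lower of 17684. On the 2 groups alone it called 245 higher and 199 lower of 17344. None of the 10 had groups that did not overlap, against 7.01% of all genes. The largest differences were in *Sbf1* (-0.50, SE 0.18, edgeR adjusted p = 0.159), *Mtmr2* (-0.41) and *Inpp4a* (-0.39, SE 0.15, edgeR adjusted p = 0.178). With GC content and length corrected for, *Mtmr2* was at -0.48, *Inpp4a* at -0.28, *Sbf1* at -0.20, *Mtm1* at 0.06 rather than 0.15, and *Vac14* at 0.02 rather than -0.17, and none was called. Limma-voom with quality weights called *Sbf1* and *Inpp4a* (11.6% of all genes). The count of members called changed with the library left out. KO replicate 4502, which had a GC trend like that of the treated libraries and stood apart in several marker sums, overlapped the treated ranges of *Sbf1* and *Inpp4a*, and the part of either in the count was not tested. Without KO replicate 4502, 5 members were called by edgeR, *Sbf1*, *Inpp4a* and *Vac14* lower and *Mtm1* and *Fig4* higher with niacin, in a fit that called 23.6% of all genes. With the GC correction and without 4502, only *Fig4* was called (0.31, SE 0.08, edgeR adjusted p = 0.0339; 14% of all genes). Without the library labelled KO replicate 4503 no member was called, in a fit that called 6 genes higher and 7 lower of 17430. *Sbf1*, *Inpp4a* and *Mtmr2* were then at -0.38, -0.37 and -0.12. Without KO replicate 4501 these members were at -0.37, -0.25 and -0.51. No member was called in that fit either, which called 29 genes higher and 19 lower of 17564. Skeletal muscle markers (8 genes, 67.5 to 3366 CPM in treated and 13.7 to 59.7 CPM in untreated KO) did not overlap, and 5 of the 8 were called higher. Myelinating Schwann cell markers (11 genes) were at 66382 to 107219 and 94429 to 129177 CPM, with a median log2 fold change of -0.56 and none called. In the edgeR fit of these 2 groups without 4506 and 4507, *Sbf1*, *Inpp4a* and *Mtmr2* were at -0.49, -0.43 and -0.38. With both libraries kept they were at -0.49, -0.38 and -0.41. Neither fit called any gene, of 17488 and 16411 tested. The part of these markers in the members' values was not tested further.

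*Sbf1* shows how these values lie. Untreated KO libraries 4501 to 4504 had 108, 57.8, 108 and 72.3 CPM, and niacin-treated libraries 4505 to 4508 had 53.9, 60.9, 62.0 and 68.2 CPM. Of the untreated libraries, 4502 lay among the treated ones and the other 3 above them. *Inpp4a* was at 95.7, 57.8, 77.9 and 72.5 CPM in untreated and at 50.5, 62.3, 58.2 and 61.6 CPM in treated KO, again with replicate 4502 inside the treated range.

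**Figure D3:**
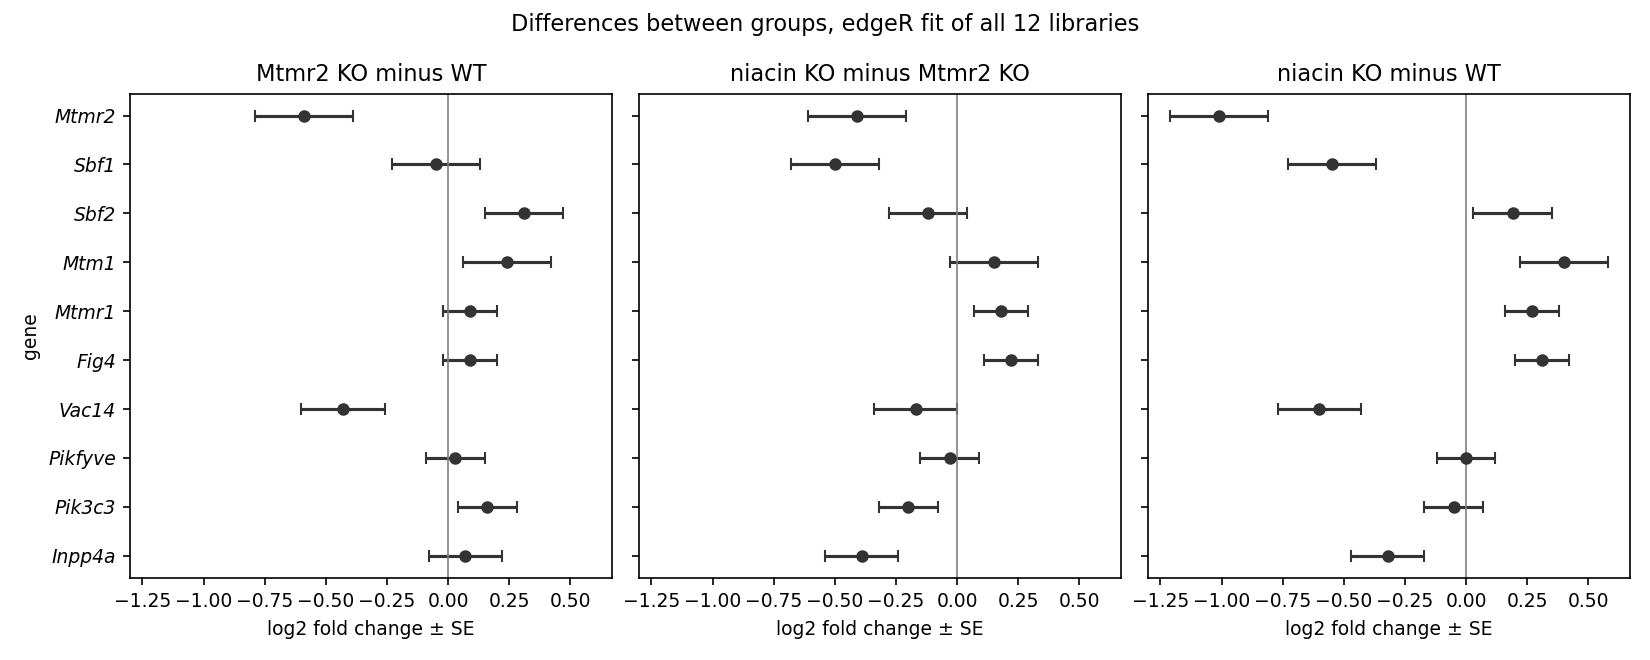
Log2 fold change of each gene with its standard error in the 3 comparisons, from the edgeR fit of all 12 libraries (n = 4 per group; the comparisons share libraries). The lowest value in the comparison with WT was that of Mtmr2, at -0.59 in untreated and -1.01 in niacin-treated KO. No member passed an adjusted p of 0.05, nor did any gene between treated KO and WT.

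Niacin-treated KO and WT nerve were the most separate pair of groups. The groups did not overlap for 6 of the 10 members, *Mtmr2*, *Sbf1* and *Vac14* lower and *Mtm1*, *Mtmr1* and *Fig4* higher in treated KO, each with the smallest exact permutation p, 0.0286. Over all genes tested 31.4% were separate in this way. *Sbf1* was at 97.0, 98.1, 85.4 and 78.4 CPM in WT, all above its highest treated library (68.2 CPM). *Mtm1* was at 14.5, 15.0, 15.9 and 18.5 CPM in treated KO, above the WT maximum of 12.9 CPM. *Mtmr1*, the closest relative of *Mtmr2* here, was at 25.9, 24.6, 26.2 and 24.4 CPM in WT and at 27.3, 30.9, 30.1 and 33.6 CPM in treated KO. In the edgeR fit of all 12 libraries, which takes its spread from the 3 groups together, no gene was called (0%; 4254 genes, or 24.7%, had an unadjusted p under 0.05, among them 5 members). In an edgeR fit of only the 2 groups 33.9% of 16501 genes were called, and 7 members were among them. *Mtmr2* fell by 1.00 on the log2 scale (SE 0.10, adjusted p = 0.00151), *Vac14* by 0.59 (SE 0.09, adjusted p = 0.00218), *Sbf1* by 0.54 (SE 0.10, adjusted p = 0.00405) and *Inpp4a* by 0.31 (SE 0.10, adjusted p = 0.0356). *Mtm1* rose by 0.40 (SE 0.11, adjusted p = 0.0152), *Fig4* by 0.32 (SE 0.08, adjusted p = 0.0093) and *Mtmr1* by 0.28 (SE 0.09, adjusted p = 0.0273). The same 7 were called by DESeq2 on the 2 groups (33.9% of genes), by limma-voom on all libraries (42.4%) and by edgeR on all libraries but KO replicate 4502 (21.6%), and 2 of them, *Mtmr2* and *Vac14*, by DESeq2 on all 12 (7.38%). Only *Mtmr2* was called by edgeR without a filter on low counts (0.918% of genes) and without the library labelled KO replicate 4503 (1.74%). Library 4503 stood out by its *Mtmr2* level, which enters the spread of the fit of all 12. *Mtmr2* and *Fig4* were called with the GC correction and without 4502 (7.97%).

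For some of the members the direction went with GC content. *Sbf1* has 58.7% GC and *Vac14* 54.8%, above 93.1% and 77.8% of the genes tested, and both were lower, whereas *Mtm1* has 38.7% and *Mtmr1* 43.9%, above 3.51% and 20.1%, and both were higher. *Mtmr2*, with 45.4% (above 27.4% of genes), was the lowest against WT, and *Pikfyve*, with 43.7%, had a log2 fold change of 0.00. Each library was then corrected for GC content and length. The GC trend lay in every treated library and in no WT library. The correction therefore also removes any group difference that follows GC content, which cannot be told apart from the trend. In the 2-group fit with this correction 18.7% of genes were called, and 4 members: *Mtmr2* fell by 1.07 (SE 0.09, adjusted p = 0.00108), *Vac14* by 0.25 (SE 0.07, adjusted p = 0.0264), *Fig4* rose by 0.34 (SE 0.07, adjusted p = 0.011) and *Sbf2* by 0.32 (SE 0.09, adjusted p = 0.0318). *Sbf1* went from -0.54 to -0.04 (SE 0.11, adjusted p = 0.849), *Inpp4a* from -0.31 to -0.13, *Mtm1* from 0.40 to 0.18 and *Mtmr1* from 0.28 to 0.20, and none of these 4 was called. *Mtmr2* and *Fig4* were within 1 standard error of their uncorrected values, whereas *Vac14* and *Sbf1* were not.

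**Figure D4:**
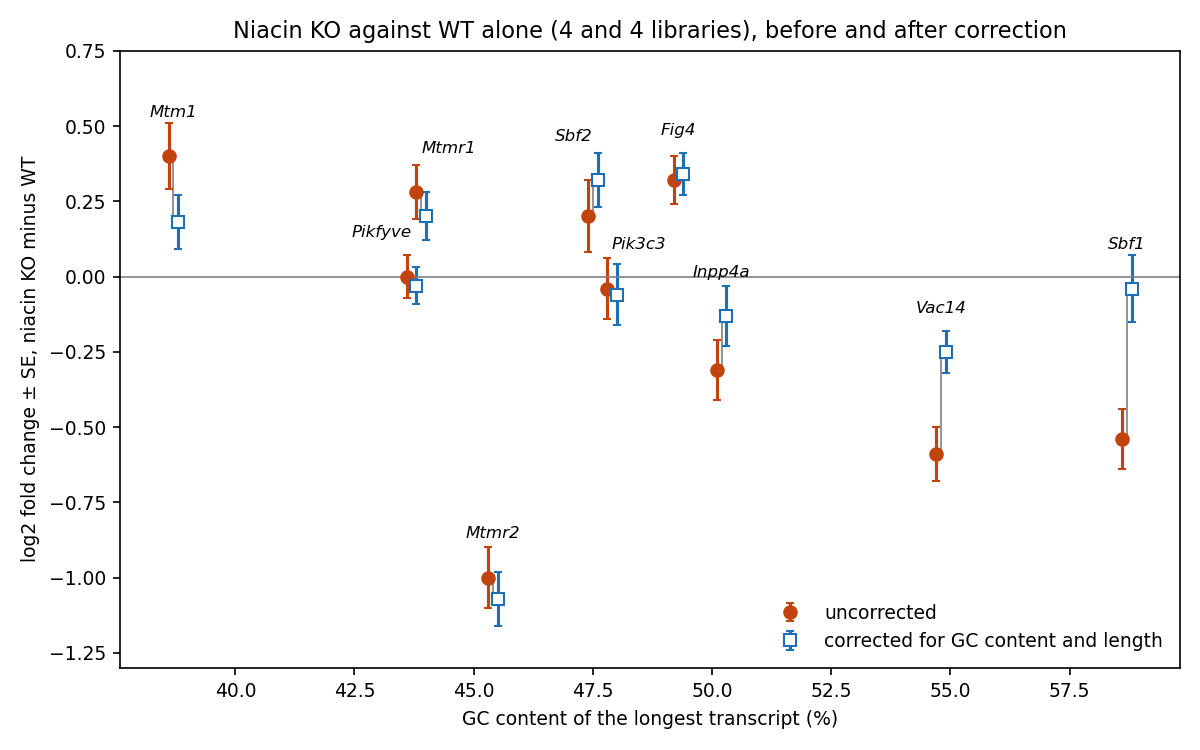
Log2 fold change with its standard error between niacin-treated KO and WT (4 and 4 libraries, edgeR on these groups alone) against the GC content of each gene's longest transcript, before (filled circles) and after (open squares) correction for GC content and length. Sbf1, at the highest GC content, moved from -0.54 to -0.04, and Mtmr2 lay at -1.07 after it, within 1 standard error of the value before.

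Leaving out both niacin-treated libraries with high muscle markers, 4506 and 4507, gave the same sign and a call for 5 of the 7 members, *Mtmr2* (-0.99), *Vac14* (-0.64), *Sbf1* (-0.56), *Mtm1* (0.44) and *Fig4* (0.35), in a fit that called 25% of all genes. Leaving out 4507 alone left 4 members called, *Mtmr2*, *Vac14*, *Sbf1* and *Mtm1*, beside 22% of all genes. The others kept values close to those of all 8 libraries in both fits, with *Mtmr1* at 0.27 in each, *Inpp4a* at -0.33 without 4507 and -0.38 without both, and *Fig4* at 0.29 without 4507. Endoneurial fibroblast markers (7 genes) summed to 8051 to 9186 CPM in treated KO and to 5263 to 6067 CPM in WT, and endothelial markers (7 genes) to 231 to 380 and 475 to 512 CPM, without overlap. Neuron markers (8 genes, 47.4 to 61.3 and 26.7 to 35.9 CPM) and skeletal muscle markers (8 genes, 67.5 to 3366 and 15.9 to 63.7 CPM) did not overlap either, and the other 6 of the 10 lists did. Beyond the leaving out of 4506 and 4507, the part of these markers in the members' differences was not tested.

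The PIKfyve complex is a kinase, a scaffold and a phosphatase held together. None of its 3 transcripts was called between treated KO and WT in the edgeR fit of all 12 libraries, which called no gene (0%). *Vac14* and *Fig4* were called in the edgeR fit of the 2 groups alone (33.9% of genes), and also with the GC correction (18.7%). *Pikfyve* was at 46.2 to 50.0 CPM in WT, 42.0 to 58.0 in KO and 47.0 to 51.4 in niacin-treated KO, with a log2 fold change of 0.00 (SE 0.12, edgeR adjusted p = 0.985) between treated KO and WT, where *Vac14* had an adjusted p of 0.0972 and *Fig4* of 0.129. *Fig4*, whose loss causes Charcot-Marie-Tooth disease type 4J, was at 31.7, 31.3, 33.1 and 32.0 CPM in WT and at 31.0, 39.5, 31.9 and 33.9 CPM in KO. In niacin-treated KO it was at 42.3, 36.2, 40.9 and 39.3 CPM, above every WT library, and KO replicate 4502 lay within that range. *Vac14* in niacin-treated KO was at 20.0, 20.5, 19.4 and 17.9 CPM, below every WT library and within the KO range. Per length, the ratio of *Fig4* to *Vac14* was 2.07 to 2.58 in WT, 2.38 to 5.94 in KO and 3.74 to 4.65 in treated KO, and the ratio of *Pikfyve* to *Vac14* was 0.559 to 0.635, 0.65 to 1.08 and 0.858 to 0.949. On the log2 scale the difference between treated KO and WT in the ratio to *Vac14* went from 0.91 to 0.59 for *Fig4* and from 0.59 to 0.22 for *Pikfyve* with the GC correction of the 2-group fit, and these differences in ratio were not tested.

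Among the 3 related phosphatases, *Mtmr2* made up most of the counted RNA, and the joint level of *Mtm1* and *Mtmr1* stayed below that of *Mtmr2* in every library. In the libraries labelled *Mtmr2* -/- the *Mtmr2* part is RNA of the targeted gene, whose deleted part is not given. It does not show message for a working phosphatase. Summed per length, *Mtmr2*, *Mtm1* and *Mtmr1* came to 31.4 to 38.0 CPM per kb in WT libraries and to 19.3 to 22.0 in niacin-treated KO. In KO the sum was 20.0, 23.8 and 19.2 in replicates 4501, 4502 and 4504 and 34.6 in the library labelled 4503. *Mtmr2* supplied 83.0% to 86.2% of this sum in WT, 72.3% to 73.7% in the 3 KO libraries with reduced *Mtmr2*, 84.3% in 4503 and 67.9% to 70.4% in treated KO. The joint level of *Mtm1* and *Mtmr1* was 5.07 to 5.33 CPM per kb in WT, 5.04 to 6.60 in KO and 5.71 to 7.07 in treated KO.

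**Figure D5:**
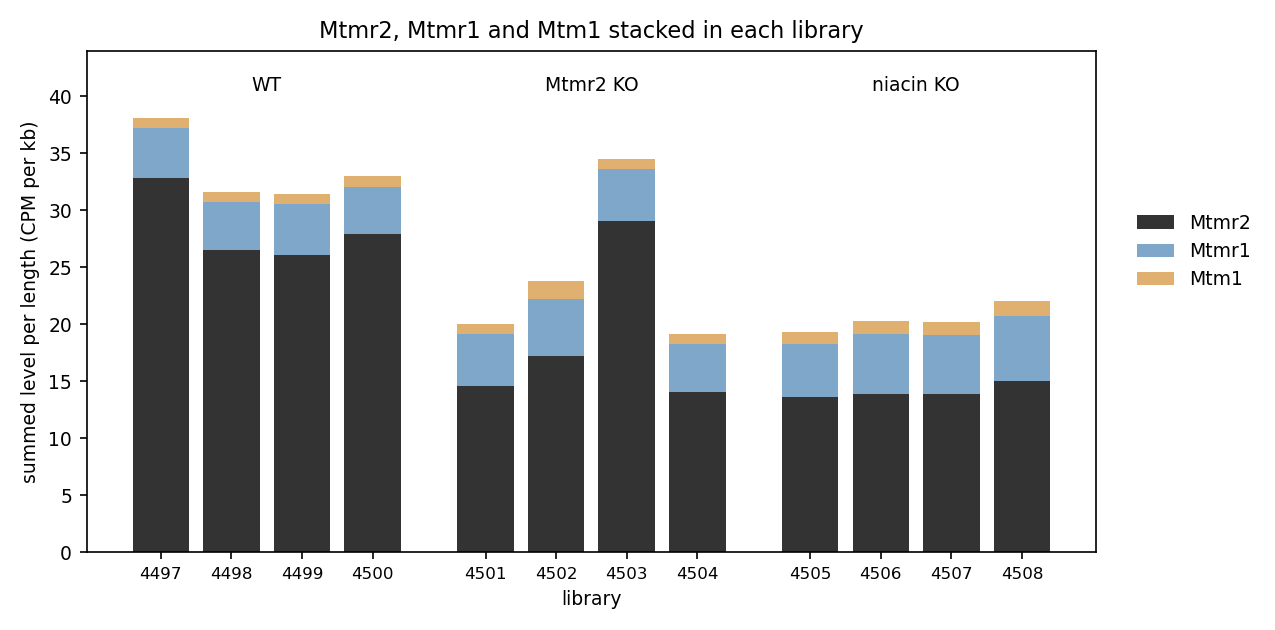
Stacked levels of Mtmr2, Mtmr1 and Mtm1 in each library, in CPM per kilobase of merged exons (axis from 0), with libraries named by label number. The stacks reach 31.4 to 38.0 in WT and 19.3 to 22.0 in niacin-treated KO, and the library labelled KO 4503 reaches 34.6. In libraries labelled Mtmr2 -/- the Mtmr2 part is RNA counted over the whole targeted gene.

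The levels of both partners were set beside that of *Mtmr2*. Per length, *Sbf1* had a mean of 13.1 in WT, 12.7 in KO and 8.97 CPM per kb in niacin-treated KO, where it lay below *Fig4* (12.1), and *Sbf2* had means of 22.9, 28.4 and 26.2. *Sbf2* and *Sbf1* together came to 32.2 to 39.9 CPM per kb in WT, 31.6 to 49.8 in KO and 32.0 to 38.8 in niacin-treated KO. The ratio of *Mtmr2* to this sum was 0.727 to 0.868 in WT and 0.321 to 0.585 in KO, with the highest KO value in 4503, and 0.351 to 0.467 in treated KO. For libraries labelled *Mtmr2* -/- it counts RNA over the whole targeted gene. In treated KO *Sbf2* was at 456, 410, 359 and 326 CPM and *Sbf1* lay below every WT library. The ratio of *Sbf2* to *Sbf1* per length there was 2.21 to 3.90, against 1.54 to 1.85 in WT. In untreated KO the ratio was 1.86 to 2.72, above every WT library only by 1.86 in 4501 against 1.85 in WT replicate 4499. The highest, 2.72, was that of 4502, which had a GC trend, and these ratios of single libraries were not corrected for GC content. Each partner alone overlapped between KO and WT. On the log2 scale the ratio was higher than in WT by 0.74 in treated KO and by 0.36 in KO from the 2-group fits, and by 0.35 and 0.22 from the same fits with the GC correction. The differences in this ratio were not tested.

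Of the enzymes that make PI3P, *Pik3c3* was at 36.4 to 42.0 CPM in WT, 41.1 to 48.1 CPM in KO and 30.5 to 44.4 CPM in niacin-treated KO, and its groups overlapped in all 3 comparisons. *Inpp4a* was at 61.8 to 80.7 CPM in WT and 50.5 to 62.3 CPM in treated KO, with 1 library of each group inside the range of the other.

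The pathway around the members was read through 6 lists with 69 genes, all of which were tested. None was called in any of the 3 comparisons in the edgeR fit of all 12 libraries. That fit called 0.267%, 1.43% and 0% of all genes between KO and WT, between niacin-treated and untreated KO and between treated KO and WT. In this order 4, 19 and 24 of the 69 (5.8%, 27.5% and 34.8%) had an unadjusted p under 0.05, beside 17.2%, 20.1% and 24.7% of all genes tested. For each list the gene with the smallest p is named with its value.

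Among the 9 other myotubularins the median log2 fold change was 0.11, -0.23 and -0.09 in the same order, beside 0.03, -0.04 and 0.02 over all genes tested. *Mtmr10* had the smallest p between KO and WT (0.23, SE 0.15, edgeR adjusted p = 0.44), *Mtmr4* between treated and untreated KO (-0.48, SE 0.19, edgeR adjusted p = 0.195) and *Mtmr6*, an active phosphatase of PI3P, between treated KO and WT (0.40, SE 0.11, edgeR adjusted p = 0.0946). In the fit of only treated KO and WT, *Mtmr6* rose and *Mtmr4* fell (33.9% of all genes were called), and *Mtmr6* was also called after the GC correction (18.7%).

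The 10 genes of PI3P synthesis, which are the partners of *Pik3c3* and the class II kinases, had medians of -0.04, -0.12 and -0.20. *Becn1*, a subunit of the *Pik3c3* complexes, had the smallest p between KO and WT (0.22, edgeR adjusted p = 0.306), and *Ambra1*, a regulator of *Becn1*, in the other 2 comparisons (-0.46 and -0.56, edgeR adjusted p = 0.21 and 0.13). In the fit of treated KO and WT alone 1 rose and 2 fell (33.9% of all genes were called), and after the GC correction 1 rose and 1 fell (18.7%); *Ambra1* went from -0.55 (adjusted p = 0.0042) to -0.23 (adjusted p = 0.0847).

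Of 16 other phosphoinositide phosphatases, with medians of -0.04, -0.05 and -0.18, *Synj2* had the smallest p between KO and WT, at 11.7 ± 1.8 CPM in KO and 16.4 ± 0.609 CPM in WT (SD, n = 4; log2 fold change -0.48, SE 0.14, edgeR adjusted p = 0.121). *Inppl1*, which removes the phosphate at position 5 from PI(3,4,5)P3, had it in both comparisons with treated KO (-0.40 and -0.61, edgeR adjusted p = 0.171 and 0.0847). In the fit of treated KO and WT alone *Inppl1* went from -0.60 (adjusted p = 0.00239) to -0.19 (adjusted p = 0.131) with the GC correction. In the 2-group fit of treated KO and WT 6 fell and 1 rose (33.9% of all genes were called), and after the GC correction 3 fell and 1 rose (18.7%).

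The 10 kinases that make PI4P and PI(4,5)P2 had medians of -0.08, -0.40 and -0.38. *Pi4ka*, the kinase that makes PI4P at the plasma membrane, was at 66.9 ± 8.86 CPM in treated KO and at 105 ± 16.0 CPM in WT (SD, n = 4; -0.65, SE 0.19, edgeR adjusted p = 0.101), and had the smallest p between KO and WT too (-0.21). *Pi4k2a* had it between treated and untreated KO (-0.63, SE 0.19, edgeR adjusted p = 0.107). In the 2-group fit of treated KO and WT 5 of the 10 fell and none rose (33.9% of all genes were called), and after the GC correction 3 fell (18.7%), with a median of -0.20.

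The 18 effectors that bind PI3P or PI(3,5)P2 had medians of 0.01, 0.05 and 0.05. The smallest p belonged to *Wdr45* between KO and WT (0.64, SE 0.19, edgeR adjusted p = 0.135), to *Wipi2* between treated and untreated KO (-0.54, SE 0.16, edgeR adjusted p = 0.0931) and to *Wipi1* between treated KO and WT (-0.55, SE 0.17, edgeR adjusted p = 0.104). In the 2-group fit of treated KO and WT 4 effectors rose and 7 fell (33.9% of all genes were called), and after the GC correction 5 rose and 3 fell (18.7%).

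The 6 other genes of recessive demyelinating Charcot-Marie-Tooth disease had medians of 0.12, -0.25 and -0.12. *Gdap1* had the smallest p between KO and WT at under 1 CPM in both groups (0.44, SE 0.46, edgeR adjusted p = 0.651). *Prx*, a Schwann cell protein bound to the dystroglycan complex, had it between treated and untreated KO (4587 ± 1070 and 6631 ± 1230 CPM, SD, n = 4; -0.53, edgeR adjusted p = 0.193). It is itself a myelinating Schwann cell marker, the list that had a median of -0.56 there, and was at -0.28 in the 2-group fit with the GC correction. *Fgd4*, an exchange factor for Cdc42 that is mutated in type 4H, had it between treated KO and WT (0.45, SE 0.19, edgeR adjusted p = 0.175), and was the 1 gene of the 6 called in the 2-group fit, without and with the GC correction (0.45 and 0.32, edgeR adjusted p = 0.00607 and 0.0312), beside 33.9% and 18.7% of all genes.

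Genes that share the chromosome segment of *Mtmr2* were read as well. Within 500 kb of it 9 genes were in the table and 5 were tested, and none was called in the edgeR fit of all 12 libraries. That fit called 0.267% of all genes between KO and WT, 1.43% between treated and untreated KO and 0% between treated KO and WT. With so few calls over all genes, none among 5 does not show that the segment was unaffected. *Ccdc82* had the smallest p between KO and WT (0.44, SE 0.18, edgeR adjusted p = 0.231) and between treated KO and WT (0.55, SE 0.18, edgeR adjusted p = 0.121), and *Maml2* between treated and untreated KO (-0.24, SE 0.13, edgeR adjusted p = 0.311).

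Of 14528 other genes with a mean of at least 1 CPM, those whose log2 CPM followed *Mtmr2* most closely over the 12 libraries were *Rbms1* (Pearson r = 0.91), *Zyx* (0.90), *Plekhg6* (0.90), *Grik5* (0.88) and *Tango6* (0.88). These are descriptions over libraries of 3 groups that differ in *Mtmr2* by design. *Zyx*, which encodes the focal adhesion protein zyxin, was at 77.4 to 92.2 CPM in WT and 47.4 to 53.1 CPM in niacin-treated KO. In KO it was at 60.3, 55.7 and 60.3 CPM in replicates 4501, 4502 and 4504 and at 101 CPM in the library labelled 4503, an order that the choice of genes by their likeness to *Mtmr2* over these same libraries fixes in part. Of the members, *Sbf1* (0.66) and *Vac14* (0.58) had the highest r with *Mtmr2* and *Fig4* (-0.68) the lowest.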

How the data were processed

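Sciatic nerve RNA of 12 mice was selected for polyA tails and sequenced. The submitters' processing notes name CASAVA 1.9, STAR, DESeq2 and the build GRCm38 (mm10). The authors deposited whole-number read counts per Ensembl gene without normalization, with totals of 20763951 to 33191106 per library. How reads were assigned to genes (program, annotation, strand) is not given in the sources used, and overlapping genes may share reads. The authors' tables of DESeq2 results hold fold changes and p-values that were not used; only their symbol column was. The number of columns of per-sample values left out was 0.

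The main test was the two-sided quasi-likelihood test of edgeR 4.0.16 (R 4.3.3), in 1 fit of the 3 groups, with filterByExpr, TMM scaling and calls at a p under 0.05 after Benjamini-Hochberg adjustment over all genes tested. The SE is the log2 fold change divided by the square root of F. CPM used TMM factors and log2 levels a prior count of 2. For single members an exact permutation test drew 4 of 8 libraries in all 70 ways. Nothing says that the mice came from separate litters, so p-values measure the spread between these samples. The scripts were tested on simulated data.

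The members and gene lists were chosen with earlier results of these data known. Named genes are the 10 members, list genes called in a comparison (up to 4 with the smallest p, or 1 where none was called), neighbours of *Mtmr2* within 500 kb with the smallest p, and the 5 genes most like it. Alternatives were DESeq2 1.42.0, limma-voom 3.58.1, DESeq2's size factors, only the 2 groups compared, other filters, a covariate from *Xist*, and each library left out of the fit of all 12. Chosen after seeing the data were a correction for GC content and length (natural splines, 5 degrees of freedom), also without library 4502, and the leaving out of libraries with high muscle markers. The leaving out of each library from the fit of treated KO and WT alone was also chosen then. Marker lists for 10 cell types were summed; those for non-myelinating Schwann cells, perineurial cells, vascular smooth muscle, macrophages and adipocytes spanned 480 to 950, 696 to 1250, 497 to 1497, 377 to 778 and 755 to 4564 CPM over the 12 libraries.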

Additional observations from a re-analysis of the deposited data

Results flagged for a closer look

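In 2 of the 30 sets of 4 libraries formed by a member and a group, 1 library lay far from the other 3, where chance gives about 1 in 20. *Mtm1* was at 21.5 CPM in KO replicate 4502, and the next highest KO library had 12.3 CPM. *Pikfyve* was at 46.2 CPM in WT replicate 4500, and the next lowest WT library had 49.4 CPM.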

How the results depend on the processing

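The count of members called was 0 in each comparison and remained 0 with DESeq2's size factors, with at least 10 counts in every library and with *Xist* as a covariate. Between KO and WT it was 1 by limma-voom and 0 to 1 with a library left out (1 without the library labelled KO replicate 4503). The member called without 4503 was *Mtmr2*, by whose level that library stood out. Between niacin-treated and untreated KO it was 2 by limma-voom and 0 to 5 with a library left out (5 without KO replicate 4502, and 1 without it and with the GC correction). Between treated KO and WT it was 2 by DESeq2 on all libraries, 7 by DESeq2 on the 2 groups, by limma-voom and by edgeR on the 2 groups, 1 without a filter on low counts (0.918% of all genes), and 0 to 7 with a library left out (7 without KO replicate 4502, 2 without it and with the GC correction, 1 without 4503, where 1.74% of all genes were called). In the fit of these 2 groups alone it was 4 with GC content and length correction, 5 without replicates 4506 and 4507, and 4 to 6 with a single library left out (22% to 34.3% of all genes). The fits of the 2 groups alone with a single library left out are not part of the following counts. Of 710 log2 fold changes of members under the other settings none changed sign while called, 53 became significant, and 6 that were not called changed sign by more than 1 SE (*Sbf1* and *Mtm1* between KO and WT, *Vac14* between treated and untreated KO). The order of levels per length kept 6 of 10 places with the longest transcript. The values moved too: the WT mean of *Sbf2* was 47.4 rather than 22.9 CPM per kb, of *Sbf1* 14.5 rather than 13.1 and of *Mtm1* 2.96 rather than 0.874. Ratios between genes per length therefore depend on the length used. Replicate numbers differ between groups. No paired analysis was possible because the groups share no replicate number. Members had 246 to 15722 counts per library, far from 0, although every treated library was shallower than every WT library.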
